A study of Mus musculus with 2 samples.

Results

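Adhesion G protein-coupled receptors are cell surface receptors with a long extracellular part that can grip other cells or matrix, joined to the usual membrane-spanning helices of a G protein-coupled receptor. In most of them the extracellular part is cut during synthesis at a site close to the membrane, and a short stretch exposed by its removal then acts as a tethered agonist. In myeloid cells the family is best known through its EGF-repeat branch, to which F4/80, the usual marker of mouse macrophages, and CD97 belong. The genes described here are the 27 rows, of 47643 genes in the table, whose symbol is Adgr followed by 1 letter and a number, from Adgra1 to Adgrv1. The pseudogene Adgrd2-ps and the 3 related Celsr genes lie outside this symbol rule.

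RNA of 2 libraries was compared, 1 from LPA-derived macrophages and 1 from monocytes. Both came from wild-type C57BL/6 mice aged 6 weeks. The macrophages were bone marrow monocytes that had differentiated with LPA (lysophosphatidic acid, a signalling phospholipid), and the labels describe the monocytes as isolated from the marrow. The number of animals, the way monocytes were purified and the length of culture are not stated in the labels. No culture without LPA was analysed here, so an effect of LPA cannot be told apart from one of culture or of differentiation. With 1 library per group no difference has a replicate check and none was tested. Every interval below is a 95% counting interval that leaves out variation between animals or cultures.

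The macrophage library held 16726342 and the monocyte library 12473180 unique exon reads. Levels are expressed as CPM, the count scaled by that total. At least 2-fold higher levels in macrophages were seen for 9 of 10 macrophage markers. Classical monocyte markers were at least 2-fold lower there in 8 of 8 cases. The median log2 difference of the 10407 genes that reached 5 CPM in at least 1 library was -0.23, so a gene at that median was slightly lower in macrophages on this scale. Markers of other marrow cells were also read, though monocytes and macrophages may express some of them. Neutrophil markers summed to 7237 CPM in macrophages and 19062 CPM in monocytes, with 5 of 10 lower and 5 higher in macrophages, and eosinophil markers to 273.6 and 2364 CPM in the same order of libraries. In bulk RNA, fewer cells of a type and less RNA per cell cannot be told apart.

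Adgrg1 and Adgrg3 lie on chromosome 8 in this order on the plus strand, and both were lower in the macrophages, as was Adgre4 on chromosome 17. The 250 bases before their RefSeq starts (GRCm38.p6, plus strand) are shown because this pair of neighbours and Adgre4 were lower in the same library. Capitals mark matches on either strand to GAGGAA (a PU.1 core motif), TGANTCA (AP-1), TTGCNNAA (C/EBP) or TGTGGT (RUNX). RefSeq gives a pair of starts for Adgrg1, and both are shown.
Adgrg1, first start, chr8:94976859-94977108: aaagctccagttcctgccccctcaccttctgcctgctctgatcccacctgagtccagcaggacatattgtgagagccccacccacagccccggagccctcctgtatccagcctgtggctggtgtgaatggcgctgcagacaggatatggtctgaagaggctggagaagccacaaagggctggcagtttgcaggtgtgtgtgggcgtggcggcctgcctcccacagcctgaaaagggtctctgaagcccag
Adgrg1, second start, chr8:94984149-94984398: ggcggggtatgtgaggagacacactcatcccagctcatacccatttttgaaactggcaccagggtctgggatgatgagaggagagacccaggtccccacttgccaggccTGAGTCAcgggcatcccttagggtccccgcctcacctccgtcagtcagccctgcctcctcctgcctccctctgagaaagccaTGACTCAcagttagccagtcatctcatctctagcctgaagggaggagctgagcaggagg
Adgrg3, chr8:95017442-95017691: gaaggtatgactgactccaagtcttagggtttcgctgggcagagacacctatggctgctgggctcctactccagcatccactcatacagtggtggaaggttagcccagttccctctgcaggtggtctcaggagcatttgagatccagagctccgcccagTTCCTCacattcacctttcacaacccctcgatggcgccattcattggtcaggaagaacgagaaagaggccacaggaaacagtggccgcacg
Adgre4, chr17:55749734-55749983: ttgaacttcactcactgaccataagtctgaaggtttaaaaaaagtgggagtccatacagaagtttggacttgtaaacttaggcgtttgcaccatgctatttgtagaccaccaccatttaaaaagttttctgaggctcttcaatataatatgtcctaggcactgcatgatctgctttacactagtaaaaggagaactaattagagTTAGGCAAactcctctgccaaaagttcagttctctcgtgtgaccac
GAGGAA was matched before Adgrg3 and stands in 23.3% of 32851 RefSeq windows of this length. It was also matched before Adgrl1, Adgrl4 and Adgrg7, which were lower in macrophages too, and before Adgrf5, which was higher. Another match lay before Adgrl3, which had 1 read in each library. The windows of these 5 genes are not shown, and a link between the motif and the levels was not tested. TGANTCA was matched at 2 places before the second Adgrg1 start and stands in 6.75% of windows. TTGCNNAA was matched before Adgre4 (9.56% of windows), and TGTGGT (14.0% of windows) in none of the windows shown. The first Adgrg1 window held none of the 4 motifs, and no matches shown overlap each other. These matches describe letters only. RefSeq windows were found for 20 of the 27 genes, at 24 starts.

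Of the 27 genes, 9 reached 5 CPM in at least 1 library, and 9 of these 9 lay past 2-fold on log2(CPM + 1), as did 33.8% of the 10407 genes past this floor. Adgre1, Adgrg6 and Adgrl2 exceeded 2-fold in favour of macrophages (3 of 9, against 13.8% of the 10407 genes). Adgre4, Adgre5, Adgrg1, Adgrg3, Adgrl1 and Adgrl4 were at least 2-fold lower (6 of 9, against 19.9% of those genes). Adgrg6, Adgrl1 and Adgrl4 reached the floor in only 1 library, which favours a large difference. The other 6 reached it in both libraries, and 6 of 6 were past 2-fold, against 26.5% of the 9014 genes at the floor in both. The median log2 difference of the 9 was -1.54. After centring on the median of all genes, 3 were higher (17.4% of all genes) and 5 lower (14.6% of all genes), because Adgre5 then stood at -0.96.

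**Figure D1:**
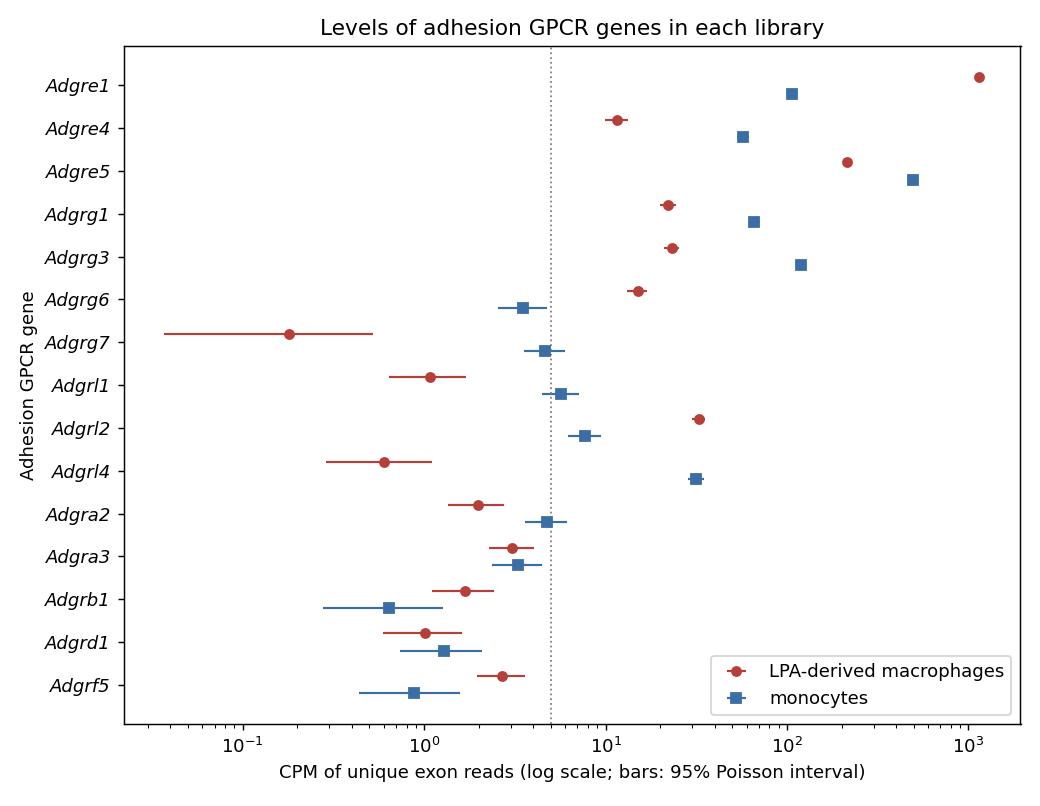
CPM of unique exon reads (x axis, log scale) for 15 adhesion GPCR genes with at least 10 reads in 1 library, with circles for LPA-derived macrophages, squares for monocytes and bars for 95% Poisson intervals. The dotted line is the 5 CPM floor, and Adgre1 stands at 1138 CPM in macrophages and 107 CPM in monocytes.

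The EGF-repeat receptors held most of the family's reads in both libraries and changed places between them. Adgre1, which encodes F4/80 (chromosome 17, 57358686 to 57483529, GRCm38), had 19040 reads in macrophages and 1338 in monocytes. That is 1138 CPM in macrophages and 107 CPM in monocytes, a 10.6-fold difference (10.04 to 11.2), and 178 of the 10407 genes had a larger difference on log2(CPM + 1) in favour of macrophages. Adgre5, which encodes CD97, a receptor of most leukocytes (chromosome 8, 83723251 to 83741326), had 215 CPM in macrophages and 495 CPM in monocytes. It was 2.30-fold lower in macrophages (2.20 to 2.40), a difference under 2-fold after centring on the median of all genes or with trimmed mean scaling. The authors' deposited table gives Adgre5 a signed fold change of -2.51, where the minus sign means lower in macrophages. Adgre5 overlaps Ddx39 on the opposite strand, which had 798 exon reads in macrophages and 1652 in monocytes. No source used here states a strand setting for the counting, so its count is uncertain where the genes overlap.

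Adgre4, another EGF-repeat receptor of mouse myeloid cells (chromosome 17, 55749984 to 55853662), went the opposite way to Adgre1, its relative on the same chromosome. It had 193 reads or 11.5 CPM in macrophages, against 712 reads or 57.1 CPM in monocytes, and was 4.95-fold lower (4.21 to 5.83). Eosinophils of the mouse also carry F4/80, and Epx, which encodes eosinophil peroxidase, stood at 9.92 CPM in macrophages and 438.5 CPM in monocytes. Of the 7 eosinophil markers 4 were at least 2-fold lower in macrophages and none was higher, and their part in the Adgre1 and Adgre4 values was not tested.

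Per exon length, as RPKM deposited by the authors, the order of the genes differed between the libraries. In macrophages Adgre1 came first at 309 RPKM, 6.12 times the level of Adgre5 (50.5 RPKM). In monocytes Adgre5 came first at 110.6 RPKM, 3.98 times the level of Adgre1 (27.8 RPKM), and Adgrg3 lay between them at 41.3 RPKM. Next in macrophages were Adgrg3 (8.37 RPKM), Adgrg1 (5.04 RPKM), Adgrl2 (2.92 RPKM) and Adgre4 (2.91 RPKM). The counting intervals of Adgrl2 (2.68 to 3.18 RPKM) and Adgre4 (2.52 to 3.35 RPKM) overlapped. Below Adgre1 in monocytes came Adgrg1 (14.4 RPKM, 13.4 to 15.4) and Adgre4 (13.7 RPKM, 12.7 to 14.8), whose intervals also overlapped, and then Adgrl4 (5.79 RPKM).

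Summed over the 27 genes, the family made up 1472 CPM in macrophages and 912 CPM in monocytes, a ratio of 1.61 (1.58 to 1.65). Without Adgre1 the other 26 genes summed to 333 CPM in macrophages and 805 CPM in monocytes, 2.42-fold lower in macrophages (2.34 to 2.496). Without both Adgre1 and Adgre5 the sums were 118 CPM in macrophages and 310.0 CPM in monocytes, 2.63-fold lower (2.49 to 2.78). By reads, not scaled for length, Adgre1 took 77.4% of the family in macrophages and 11.8% in monocytes. The share of Adgre5 was 14.6% in macrophages and 54.2% in monocytes, and that of Adgrg3 1.57% in macrophages and 13.1% in monocytes. The 3 EGF-repeat genes together took 92.8% in macrophages and 72.3% in monocytes.

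**Figure D2:**
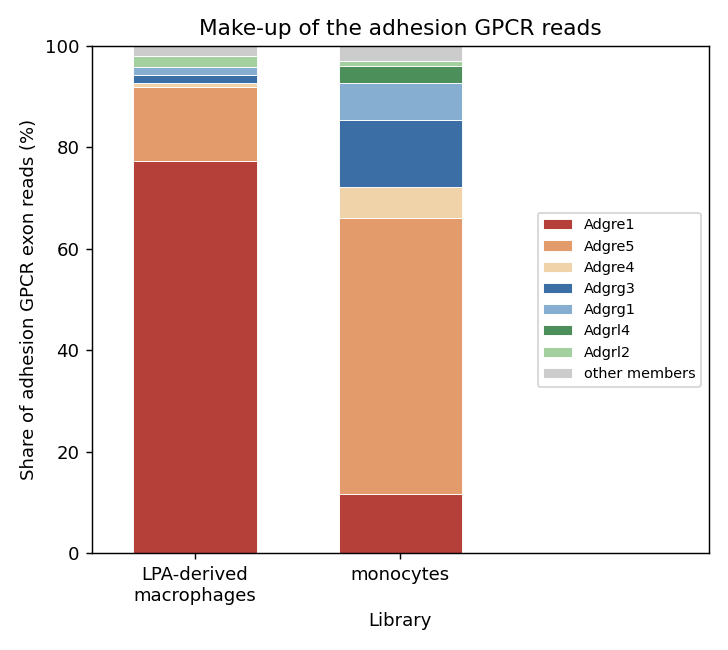
Share of all adhesion GPCR exon reads (y axis, percent) taken by each gene in the macrophage library (left bar) and the monocyte library (right bar). Adgre1 takes 77.4% in macrophages and 11.8% in monocytes, where Adgre5 takes 54.2%.

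Among the ADGRG genes described here with at least 10 reads, 3 had lower levels in macrophages and 1 had a higher level. Of the 3, Adgrg7 was under 5 CPM in both libraries. The matching share over all genes is not given here, so this tally is not a result about the branch. Adgrg3, which encodes GPR97, a receptor of granulocytes (chromosome 8, 95017692 to 95045247), had 387 reads in macrophages and 1496 in monocytes. Its 23.1 CPM in macrophages against 119.9 CPM in monocytes made it 5.18-fold lower (4.63 to 5.81). Adgrg1, which encodes GPR56, a receptor for collagen III found on human NK cells and on blood stem cells (chromosome 8, 94977109 to 95014208), stood at 22.1 CPM in macrophages and 66.2 CPM in monocytes. It was 2.99-fold lower (2.65 to 3.39).

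Adgrg1 and Adgrg3 are 3483 bases apart with no other listed gene between them. This pair summed to 45.3 CPM in macrophages and 186 CPM in monocytes, 4.11-fold lower (3.79 to 4.47). Markers of other cells that can carry these receptors also differed between the libraries. The 10 neutrophil markers were split, with 5 lower (S100a8, S100a9, Ngp, Ltf and Camp) and 5 higher (Retnlg, Mmp8, Mmp9, Cxcr2 and Csf3r) in macrophages. Stem and progenitor markers summed to 63.9 CPM in macrophages and 456 CPM in monocytes, with 4 of 6 at least 2-fold lower and 1 higher. T and NK cell markers summed to 3.05 CPM in macrophages and 110.6 CPM in monocytes, where nearly all of it came from Nkg7. The other 6 of these markers were under 5 CPM in both libraries, with Cd8a and Gzma at 0 in macrophages. Of the NK cell markers among them, Ncr1 had 10 reads in macrophages and 4 in monocytes, and Klrb1c had 11 in macrophages and 7 in monocytes. The intervals of both ratios included 1 (0.54 to 8.14 for Ncr1 and 0.41 to 3.57 for Klrb1c). Gzma, which NK cells also express, had 15 reads in monocytes. The part of these cells in the Adgrg values was not tested.

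Adgrg6, which encodes GPR126, a receptor needed for Schwann cells to make myelin (chromosome 10, 14402583 to 14545179), was the ADGRG gene on the other side. It had 251 reads or 15.0 CPM in macrophages, against 44 reads or 3.53 CPM in monocytes, and was 4.25-fold higher (3.08 to 6.002). Adgrg7, which encodes GPR128, a receptor of the gut epithelium, had 3 reads in macrophages and 58 in monocytes, a 25.9-fold difference with the wide interval of 8.44 to 129.4. Adgrg2 had 0 reads in macrophages and 1 in monocytes, and Adgrg4 had none in either library.

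The latrophilin branch, named for receptors of a spider toxin that act in synapses, was split. Adgrl2 (chromosome 3, 148815583 to 148990555) had 546 reads or 32.6 CPM in macrophages, against 96 reads or 7.70 CPM in monocytes, and was 4.24-fold higher (3.41 to 5.33). Adgrl4, which encodes ELTD1, a receptor of endothelial cells (chromosome 3, 151437887 to 151545086), had 10 reads or 0.598 CPM in macrophages, against 394 reads or 31.6 CPM in monocytes. It showed the widest ratio among the 15 genes described here with at least 10 reads in 1 library, 52.8-fold lower (28.4 to 111), or -36.1 in the authors' deposited table. Its interval overlaps that of Adgrg7.

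Of the 6 endothelial markers, Pecam1 was lower and Vwf higher past 2-fold in macrophages (Pecam1 within 2-fold after centring on the median of all genes), and the other 4 were under 5 CPM in both libraries. The 6 summed to 151.7 CPM in macrophages and 86.3 CPM in monocytes, and most of the macrophage sum came from Vwf. Vwf stood at 117.2 CPM in macrophages and 17.7 CPM in monocytes, and Pecam1 at 30.3 and 62.1 CPM in the same order. Those 4, Cdh5, Tek, Emcn and Kdr, stood at 0.12, 0, 0.12 and 3.95 CPM in macrophages and at 1.60, 0.722, 0.641 and 3.53 CPM in monocytes. The part of endothelial cells in the Adgrl4 value was not tested. Adgrl1 (chromosome 8, 83900105 to 83941954) had 18 reads in macrophages and 71 in monocytes, and was 5.29-fold lower (3.12 to 9.43). Adgrl3 had 1 read in each library.

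**Figure D3:**
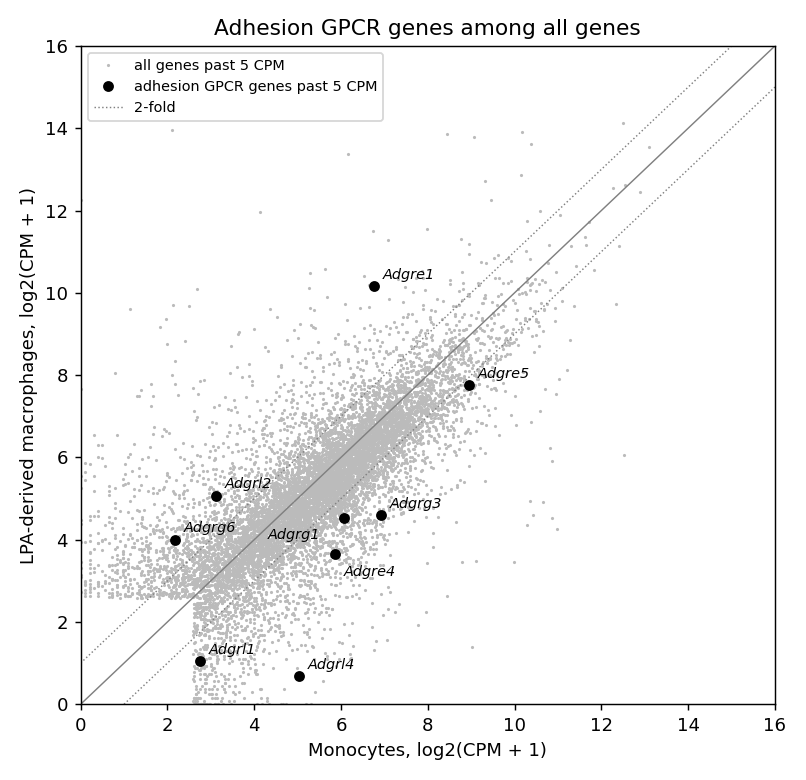
Level of each gene in LPA-derived macrophages (y axis) against monocytes (x axis), both as log2(CPM + 1), for the 10407 genes past 5 CPM (grey) and the 9 adhesion GPCR genes among them (black). Dotted lines mark 2-fold, and all 9 black points lie outside them, 3 above and 6 below.

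The remaining branches were scarce, and none of their genes reached 5 CPM. Adgra2, which encodes GPR124, a co-receptor of WNT7 in brain vessels, had 33 reads in macrophages and 59 in monocytes, 2.40-fold lower (1.54 to 3.79). Adgrf5, which encodes GPR116, a regulator of lung surfactant, had 45 reads in macrophages and 11 in monocytes, 3.05-fold higher (1.55 to 6.54). Adgrb1, which encodes BAI1, a receptor that binds phosphatidylserine on dying cells, had 28 reads in macrophages and 8 in monocytes, 2.61-fold higher (1.16 to 6.63).

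The authors' deposited table gives Adgrb1 a fold change of 1.92 with an FDR-corrected p of 0.0941, from a test of 1 library against 1 that compares these libraries and not the conditions. For Adgra3 (51 reads in macrophages and 41 in monocytes) and Adgrd1 (17 and 16 reads in the same order) the interval of the ratio included 1. Over the 15 genes described here with at least 10 reads in 1 library, the interval lay above 1 for 5, below 1 for 8 and across 1 for 2. The matching share over all genes is not given here, so these counts are not a result about the family. The other 11 genes had at most 7 reads in macrophages and at most 1 in monocytes. They are Adgra1, Adgrb2, Adgrb3, Adgrf1, Adgrf2, Adgrf3, Adgrf4, Adgrg2, Adgrg4, Adgrl3 and Adgrv1, and 5 of them had no exon read in either library. With a limit of 3 reads, a count of 0 allows up to 0.179 CPM in macrophages and 0.241 CPM in monocytes.

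**Figure D4:**
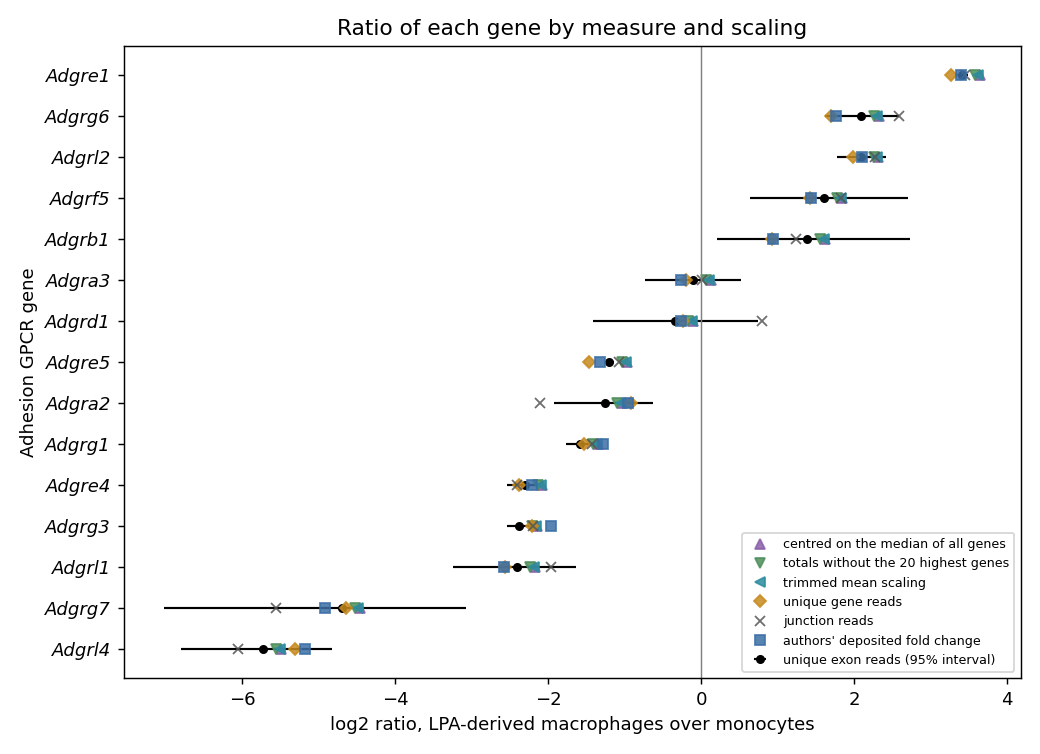
Log2 ratio of LPA-derived macrophages over monocytes (x axis) for 15 genes with at least 10 reads in 1 library. Black circles with bars give unique exon reads with their 95% interval, and the other symbols give other scalings, other read classes and the authors' deposited fold change. The 9 genes past 5 CPM keep their side of 0 under every symbol shown, though the scalings move all genes alike and by too little to change it.

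Intron reads give a second readout of the same genes. Over all genes, introns held 9.90% of unique gene reads in macrophages and 14.1% in monocytes. For Adgre1 the intron share was 7.14% in macrophages (6.79 to 7.50) and 19.8% in monocytes (17.9 to 21.8). For Adgre5 it was 15.4% in macrophages (14.4 to 16.6) and 32.8% in monocytes (31.8 to 33.7). Both shares were thus lower in the macrophage library, beyond counting error. Adgrg3 showed the opposite order, with 34.8% in macrophages (31.0 to 38.8) and 30.2% in monocytes (28.3 to 32.2), and these intervals overlapped. Reads across exon junctions, which come from spliced RNA, made up 72.8% of the exon reads of Adgre1 in macrophages and 74.6% in monocytes. For Adgre5 they made up 87.4% in macrophages and 84.2% in monocytes.

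Ligands and partners of the receptors were measured as well, without a test of either list. Of 20 genes listed for the ADGRE, ADGRG, ADGRB and ADGRD receptors, 10 reached 5 CPM, 7 of them in both libraries. Of those 10, 6 were at least 2-fold higher in macrophages (13.8% of all genes past the floor), none was lower by 2-fold (19.9% of all genes) and 4 lay within it (median log2 difference 1.68, against -0.23 for all genes). GPR56 binds collagen III and the crosslinking enzyme transglutaminase 2. Col3a1 stood at 10.9 CPM in macrophages and 0.641 CPM in monocytes, 17.1-fold higher (8.48 to 40.1), and Tgm2 at 76.05 CPM in macrophages and 16.4 CPM in monocytes, 4.65-fold higher (4.01 to 5.42). Adgrg1 itself, by contrast, was lower, as given above. Stromal markers summed to 883 CPM in macrophages and 1783 CPM in monocytes. Among them, the collagen gene Col1a1 stood at 447 CPM in macrophages and 919 CPM in monocytes. The part of stromal cells in the Col3a1 value was not tested.

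CD97 binds CD55, and Cd55 stood at 4.07 CPM in macrophages and 7.46 CPM in monocytes, within 2-fold. CD97 also binds integrins, and Itgav was 5.61-fold (5.09 to 6.18) and Itgb1 2.31-fold (2.22 to 2.41) higher. Plxdc2, which encodes a reported ligand of the ADGRD1 receptor, stood at 63.1 CPM in macrophages and 1.92 CPM in monocytes, 32.8-fold higher (21.9 to 51.4). The tetraspanin gene Cd9 was 9.22-fold higher (8.66 to 9.82), while Cd81, another tetraspanin gene, was lower but within 2-fold at 27.4 CPM in macrophages and 47.9 CPM in monocytes.

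For latrophilins and the ADGRA2 receptor, 2 of 13 listed genes reached 5 CPM, 1 higher and 1 lower past 2-fold. Flrt2, which encodes a membrane ligand of latrophilins, had 1055 reads in macrophages and 4 in monocytes, 197-fold higher (76.6 to 723). It was thus on the same side as Adgrl2, but on the opposite side to Adgrl1, which was 5.29-fold lower. Reck, which encodes the partner of GPR124, stood at 3.59 CPM in macrophages and 17.4 CPM in monocytes, 4.85-fold lower (3.63 to 6.57). Adgra2 was on the same side but under 5 CPM in both libraries. A link between receptors and ligands was not tested. The teneurin and neurexin genes had at most 18 reads in either library.

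Signalling genes were measured in both libraries. BAI1 passes its signal through ELMO and DOCK proteins to RAC, and of 8 such genes at 5 CPM in both libraries 7 lay within 2-fold and 1 was past it, against 26.5% past it among all genes at that level in both. Those within 2-fold include Elmo1 (86.5 CPM in macrophages and 140.5 CPM in monocytes) and Rac1 (419 and 423.5 CPM in the same order). The gene past 2-fold, Crk, was 2.09-fold higher (1.94 to 2.25). Of 14 genes of G proteins, exchange factors and arrestins past 5 CPM, 10 lay within 2-fold, 3 were higher (Arhgef12, Gnaq and Gna12) and 1 was lower (Gna15). These 4 of 14 are close to the same 26.5%, since all 14 reached 5 CPM in both libraries. After centring on the median of all genes 4 of the 14 were higher and 0 lower. Of the 10407 genes past the floor in at least 1 library, 17.4% were then higher and 14.6% lower. Arhgef12, which encodes an exchange factor that links G12 and G13 proteins to RHOA, was 8.28-fold higher (6.70 to 10.3). Gna13 stood at 258.5 CPM in macrophages and 168.8 CPM in monocytes.

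**Figure D5:**
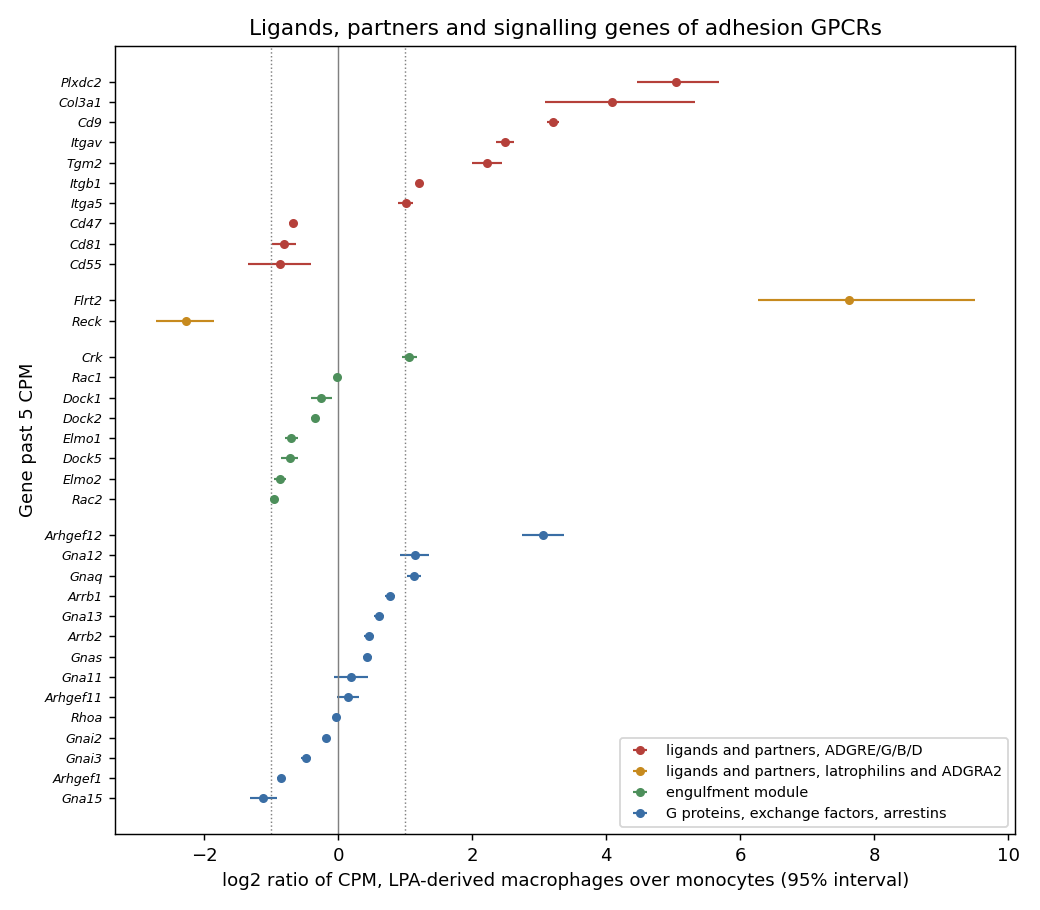
Log2 ratio of CPM in LPA-derived macrophages over monocytes (x axis, bars: 95% interval) for ligands, partners and signalling genes past 5 CPM, coloured by list. Dotted lines mark 2-fold; Flrt2, Plxdc2, Col3a1, Cd9 and Arhgef12 lie far to the right, and most signalling genes lie between the lines.

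The Celsr genes are adhesion receptors of planar cell polarity that carry another symbol. Of the 3, 1 was at least 2-fold lower on log2(CPM + 1), 1 lay within 2-fold and 1 was under 5 CPM in both libraries. Celsr1 stood at 0.777 CPM in macrophages and 15.2 CPM in monocytes, 19.5-fold lower (11.1 to 37.3). Celsr3 stood at 16.3 CPM in macrophages and 28.1 CPM in monocytes, 1.72-fold lower (1.47 to 2.03). Celsr2 had 13 reads in macrophages and 23 in monocytes, 2.37-fold lower (1.15 to 5.10).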

How the data were processed

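The deposited file is a single table, 47643 genes long. Its columns, per the file headers, give read counts by library for whole genes, exons, exon junctions and introns. The authors' RPKM values equal exon reads over exon length and over 1 total per library, with 0 genes deviating by over 1%. A normalized signal, also deposited, holds the same sorted values in both libraries. Its ratio is the authors' signed fold change (a score), and a Baggerley's test of 1 library against 1 gave their p-values, per the file headers. No label or header names the mapper, the strand setting or poly(A) selection. The submitters' processing notes name mm9, but 27 of 27 gene identifiers were found in GENCODE M21 on GRCm38, and 21 of them had an identical span there. Positions are therefore 1-based GRCm38 ones.

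Libraries were assigned to groups by title. Unique exon reads were scaled to CPM by 16726342 (macrophages) and 12473180 (monocytes). The log2 difference is log2(CPM + 1) of macrophages minus monocytes, and 2-fold calls were made past a floor of 5 CPM in at least 1 library (83.6 and 62.4 reads in the same order). Folds are plain CPM ratios with exact conditional (Clopper-Pearson) 95% intervals; levels have exact Poisson intervals, and shares Clopper-Pearson ones. The labels mention no molecular identifiers, so intervals and the 3-read limit for a count of 0 cover counting error only. Genes named are the members with 10 or more reads (1 of them is not reported here), the rest by name, and up to 4 genes of each partner list with the largest differences plus Tgm2, Col3a1, Cd55, Elmo1, Gna13 and Celsr1 to Celsr3; further partner and marker genes were named after their values were seen. The members and lists were chosen with earlier results of these data known. Alternatives were other floors, pseudocounts, scalings, read classes and fold thresholds; sums without Adgre1 or Adgre5 and junction reads were chosen after seeing the data. The calculations were tested on simulated data, with Python 3.11.15, scipy 1.17.1 and pandas 2.3.3.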

Additional observations from a re-analysis of the deposited data

Results flagged for a closer look

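Intron reads were present for all 5 genes with no exon read in either library, and for 2 of them the interval of the ratio lay above 1. Adgrv1, which encodes a very large receptor of inner ear hair cells (chromosome 13, 81095068 to 81633154, GRCm38), had 24 intron reads in macrophages and 6 in monocytes, a ratio of 3.13 when scaled by the gene reads of each library (95% counting interval 1.25 to 9.36). It overlaps 9330111N05Rik on the opposite strand, which had 36 intron reads in macrophages and 69 in monocytes. Adgrb3, which encodes the brain receptor BAI3 (chromosome 1, 25067476 to 25829707), had 15 intron reads in macrophages and 3 in monocytes, a ratio of 3.91 (1.11 to 21.1). Of the other 3, Adgrf2 had 4 intron reads in macrophages and 0 in monocytes, Adgrf4 had 1 and 0 in the same order, and Adgrg4 had 4 and 1, a ratio of 3.13 (0.31 to 154.2). Adgrv1 and Adgrb3 stood out because these reads lie in a read class that the levels above do not use, and the monocyte library had fewer of them.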

How the results depend on the processing

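Across 54 recomputed values of the main results, 31 stayed within the counting interval or, for counts of genes, within 1.5 times the reported one. No direction of a gene past 5 CPM changed in 63 recomputed ratios, but many of these could not change. The scalings move every gene alike, by 0.168 to 0.233 in log2, which is too little to turn any of these genes. Total exon reads equalled unique exon reads for them. Only gene reads, junction reads and the authors' deposited fold change could have given another direction. The median log2 difference of the genes past the floor, reported as -1.54, was -1.07 at a floor of 1 CPM, -1.37 at 10 CPM, 0 with no floor (where unread genes count as 0), -1.18 with a pseudocount of 5 CPM, -1.31 after centring on the median of all genes, -1.32 with trimmed mean scaling, -1.37 without the 20 highest genes in the totals and -1.325 with the authors' deposited fold change. The Adgre1 fold was 12.5, 12.3 and 11.9 under the same 3 scalings and 9.62 with gene reads. The ratio of the family sums was 1.90, 1.87 and 1.81 under these scalings, 1.33 with gene reads and 1.43 with the authors' deposited normalized signal, but 0.414 without Adgre1 and 0.380 without Adgre1 and Adgre5. The share of Adgre1 in macrophages was 75.0% with gene reads and 74.0% with the normalized signal. At 4-fold on log2(CPM + 1), which understates the plain fold of low genes, 1 gene was higher and 3 were lower. The share of all genes past 4-fold is not given here, so these 4-fold counts have no background beside them. Beyond what the alternatives themselves construct, the cause was not tested. No paired analysis was possible because there is 1 library per group. Depth limits the 11 genes with under 10 reads.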
